A study of Mus musculus with 30 samples.

Results

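The 52 genes described here encode the proteins that copy DNA and the enzymes that make its building blocks. The list names genes by function, with no measured value in its rule, but it was drawn up with earlier results of these data known. All 52 genes were in the deposited count table, among 12016 genes tested. They were followed in 3T3-L1 cells, a mouse embryonic fibroblast line used as a model of preadipocytes, because such cells stop dividing as they reach confluence and can then be induced to become adipocytes. One set of cells had received 50 nM of an siRNA pool against Kdm5c, which encodes an X-linked demethylase of histone H3 lysine 4, and the controls, named scramble in what follows, 50 nM of a non-targeting siRNA. In every group the siRNA was given with Lipofectamine RNAiMAX in complete preadipocyte medium (Zen-bio) as the cells were plated, still sub-confluent, 3 days before the start of differentiation. Cells with Kdm5c siRNA were collected after 24 h (day −2), 48 h (day −1) and 72 h (day 0), and scramble cells at the same times, before any differentiation stimulus named in the labels. Each of these 6 groups held 5 libraries, 30 in all, and no untransfected cells are among them. Whether the 5 libraries of a group came from separate cultures is not in the labels, so p-values rest on a spread that may be technical only.

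Replication starts when the origin recognition complex, with CDC6 and CDT1, loads the ring of MCM2 to MCM7 onto DNA in G1. In S phase, CDC45 and GINS join that ring to form the active helicase, primase and polymerase alpha lay down primers, and polymerases delta and epsilon extend them on the sliding clamp PCNA, which the RFC complex loads. FEN1 and DNA ligase I join the lagging-strand fragments, RPA covers single-stranded DNA, and ribonucleotide reductase, thymidylate synthase and thymidine kinase supply deoxynucleotides. Many of these genes are textbook targets of E2F factors, which drive transcription at the entry into S phase, and their transcripts are known to be low in cells that have stopped dividing. In a bulk sample, fewer cells in S phase and less RNA per cell cannot be told apart.

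Library totals were 25217905 to 33725717 reads, so a count of 3 reads corresponds to 0.089 to 0.119 CPM (reads scaled to a common library total), and the lowest member, Dscc1, still averaged 4.08 CPM in scramble cells on day 0. The knockdown held on each day: Kdm5c stood at 25.5 ± 1.29 CPM with Kdm5c siRNA, against 157.1 ± 1.75 CPM with scramble, on day −2 (SD, n = 5 each; two-sided exact permutation p = 0.00794, the lowest value open to 5 against 5 libraries). The same p was reached on day −1, with 35.6 ± 3.56 CPM against 188.9 ± 2.90 CPM, and on day 0, with 53.3 ± 2.38 CPM against 211.7 ± 4.84 CPM. All 8 fibroblast markers were measured, with a summed level of 25348 to 37469 CPM per library. The summed level of 6 adipocyte markers moved with the days: it was 15.02 to 18.7 CPM with Kdm5c siRNA and 16.02 to 19.9 CPM with scramble on day −2, 31.8 to 35.4 CPM and 31.7 to 40.8 CPM on day −1, and 37.8 to 46.1 CPM and 34.1 to 41.3 CPM on day 0. Most of it came from Fabp4, while Adipoq averaged under 0.089 CPM, the lowest 3-read level, in every group. The 5 macrophage markers summed to 6.37 to 9.12 CPM with Kdm5c siRNA and 4.82 to 7.31 CPM with scramble on day −2, and to 3.68 to 5.53 CPM and 2.41 to 3.31 CPM on day 0. Of these, Cd68 stood at 3.256 ± 0.691 CPM with Kdm5c siRNA, against 1.738 ± 0.194 CPM with scramble, on day 0 (SD, n = 5 each). On day −2, Cd68 had been lower, at 1.523 ± 0.167 CPM and 1.312 ± 0.139 CPM. Csf1r moved as the sum did, from 5.694 ± 1.088 CPM on day −2 to 1.522 ± 0.26 CPM on day 0 with Kdm5c siRNA. With scramble, Csf1r went from 5.001 ± 0.876 CPM to 1.067 ± 0.2 CPM. The 4 endothelial markers summed to 1.609 to 2.017 CPM with Kdm5c siRNA and 0.982 to 1.466 CPM with scramble on day −1. On the other days the arms overlapped in that sum. The part of these markers in the results below was not tested. Adgre1 and Epcam, defining markers of macrophages and epithelium, were at 0 in every library. All 4 epithelial markers summed to at most 0.391 CPM in a library. Some libraries stood apart in the mean log2 level of the 52 genes. On day 0, replicate 1 was the highest of both groups, at 5.24 with Kdm5c siRNA (group mean 5.13 ± 0.06, SD, n = 5) and at 5.18 with scramble (5.06 ± 0.08). On day −1, scramble replicates 4 and 5, at 5.91 and 5.89, lay above the other scramble libraries, at 5.79 to 5.82. The Kdm5c siRNA mean of day −1, 5.84, lay between these sets.

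**Figure D1:**
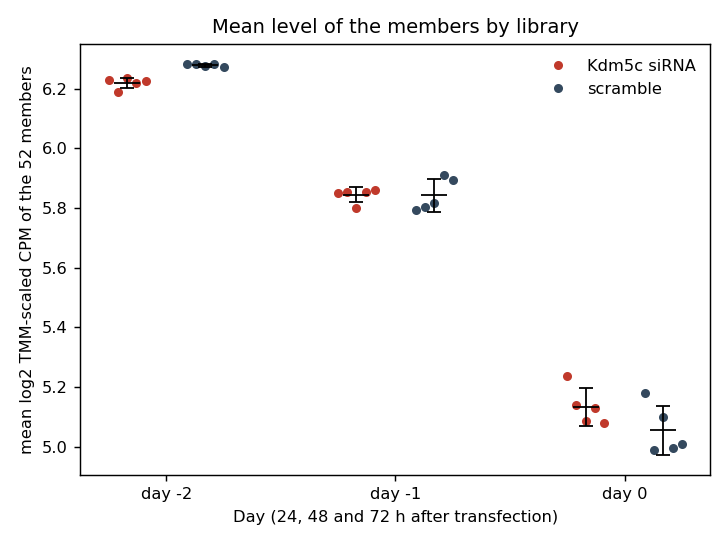
Mean log2 level (CPM with TMM scaling) of the 52 genes in each library, by day; points are libraries, bars the group mean and whiskers the SD (n = 5). Kdm5c siRNA libraries lie below scramble libraries on day −2 (means 6.22 and 6.28), at the same mean on day −1 (both 5.84) and, with overlap, higher on day 0 (5.13 and 5.06).

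Every one of the 52 transcripts fell over the 48 h between day −2 and day 0, in both siRNA arms. With Kdm5c siRNA, day 0 against day −2, 52 of 52 were called lower (edgeR, adjusted p under 0.05 over all genes), where 43.6% of all 12016 genes were lower and 87.4% changed either way. With scramble, 52 of 52 were also called lower, where 43.6% of all genes were lower and 88.2% changed. The median log2 fold change was −1.12 with Kdm5c siRNA and −1.21 with scramble, beside medians close to 0 over all genes. What was left on day 0 ranged from 16.6% (Rrm2) to 79.1% (Rfc1) of the day −2 level with Kdm5c siRNA, with a median of 46.1%, and from 15.5% (Rrm2) to 73.8% (Rfc1) with scramble, with a median of 43.1%. The 5 genes with the largest fall in scramble were Rrm2, Tk1, Cdc6, Clspn and Fen1, and the 5 with the smallest were Rfc1, Rpa3, Pold3, Rfc2 and Rfc4. None of the groups of the same arm overlapped between days for the 15 genes whose libraries are listed below. Those 15 were picked by adjusted p or by a high mean CPM, and the 5 genes with the smallest fall are not among them. The share of all genes without such overlap was not computed.

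**Figure D2:**
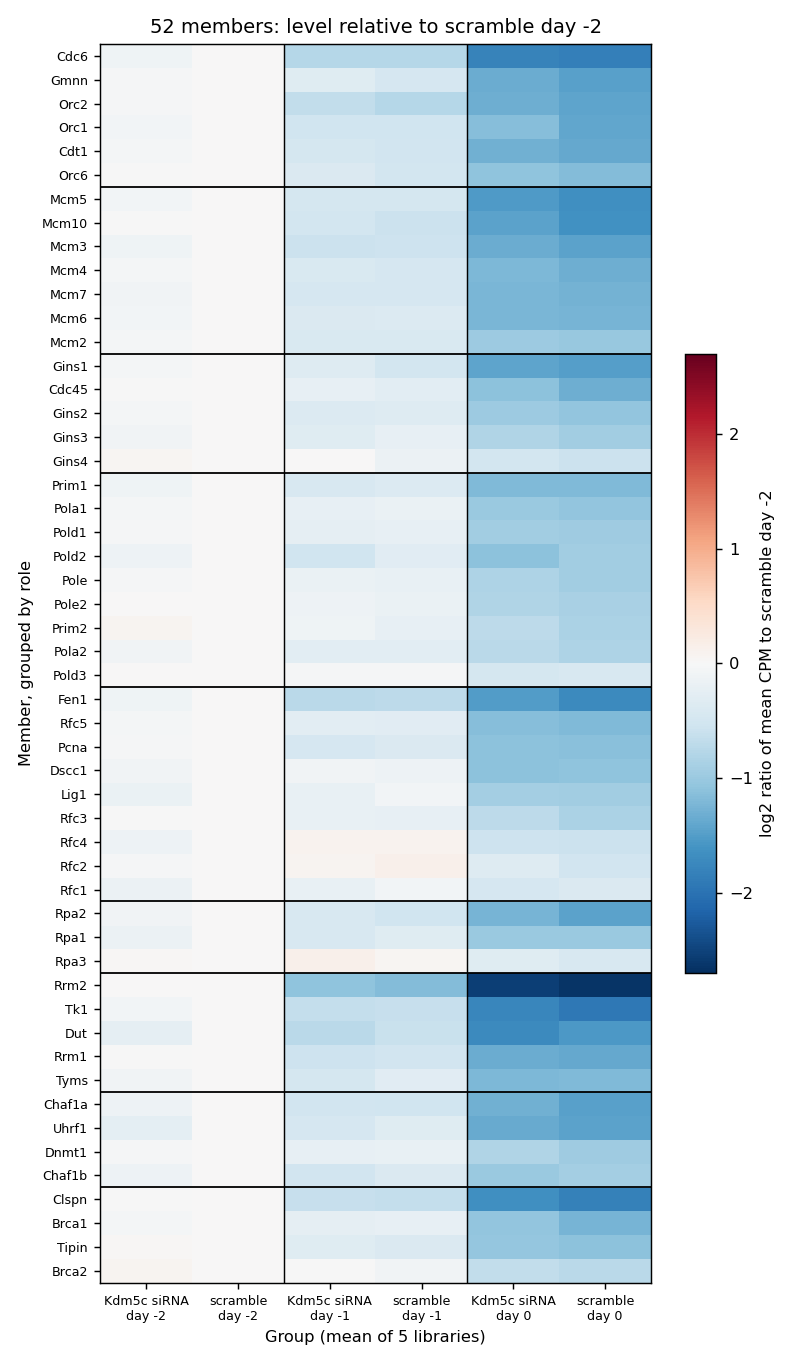
Level of each of the 52 genes in the 6 groups, as the log2 ratio of the mean CPM to that of scramble on day −2; rows are grouped by role, columns are means of 5 libraries. All rows are blue on day 0, deepest in Rrm2, while Rfc2, Rfc4 and Rpa3 are slightly above 0 on day −1.

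The promoters were searched for short sequence motifs, which the list did not use. RefSeq windows of 300 bases around the transcription start (250 before, 50 after; GRCm38.p6) matched 42 of the 52 genes by symbol, in 51 windows. Both strands were read for 4 E2F octamers (TTTCCCGC, TTTGGCGC, TTTCGCGC and TTTGCCGC), for the CCAAT box (CCAAT) and for the CHR element of mitotic genes (TTTGAA). An E2F octamer was in 18 of 51 windows (35.3%), against 744 of 32851 windows of all genes (2.26%); counted by gene, 18 of 42 (42.9%) held one, against 446 of the 9075 tested genes with a window (4.91%). CCAAT was in 60.8% of the windows, against 37.4% of all windows, and the CHR element in 11.8%, against 17.9%. Counted by gene, CCAAT was in 27 of 42 (64.3%), against 43.6% of the 9075 tested genes with a window. The CHR element was in 6 of 42 genes (14.3%), against 1275 of those 9075, a nearly equal share. Its lower share by window was therefore not seen against the tested genes. The windows had 58.6% G and C, against 53.8% in all windows. These are matches of letters and not measured binding. With Kdm5c siRNA the median log2 fold change over 48 h was −1.06 in the 18 genes with an octamer and −1.12 in the 24 without one. With scramble the medians were −1.20 and −1.23. The windows of the 5 genes that are listed below with all libraries and held an octamer are shown 5′ to 3′ on the gene's strand, with each octamer in capitals.
Mcm3 (minus strand, chr1:20820263-20820562): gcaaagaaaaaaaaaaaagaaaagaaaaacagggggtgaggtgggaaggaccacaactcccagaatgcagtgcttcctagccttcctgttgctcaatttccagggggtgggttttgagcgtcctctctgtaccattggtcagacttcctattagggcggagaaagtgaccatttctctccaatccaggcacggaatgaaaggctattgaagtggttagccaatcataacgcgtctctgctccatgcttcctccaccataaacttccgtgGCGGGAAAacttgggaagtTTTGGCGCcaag
Uhrf1 (plus strand, chr17:56304063-56304362): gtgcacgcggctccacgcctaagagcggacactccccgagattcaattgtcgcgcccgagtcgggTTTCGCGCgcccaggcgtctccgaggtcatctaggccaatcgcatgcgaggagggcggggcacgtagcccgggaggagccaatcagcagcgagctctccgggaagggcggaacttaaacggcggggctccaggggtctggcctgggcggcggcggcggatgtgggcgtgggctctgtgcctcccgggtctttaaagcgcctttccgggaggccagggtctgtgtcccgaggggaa
Orc1 (plus strand, chr4:108579204-108579503): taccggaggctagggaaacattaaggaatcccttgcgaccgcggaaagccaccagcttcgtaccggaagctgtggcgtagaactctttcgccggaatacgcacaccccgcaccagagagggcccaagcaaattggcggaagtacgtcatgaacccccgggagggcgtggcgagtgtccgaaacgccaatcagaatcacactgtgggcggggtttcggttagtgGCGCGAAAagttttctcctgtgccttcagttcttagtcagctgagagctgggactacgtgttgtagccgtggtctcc
Cdt1 (plus strand, chr8:122567765-122568064): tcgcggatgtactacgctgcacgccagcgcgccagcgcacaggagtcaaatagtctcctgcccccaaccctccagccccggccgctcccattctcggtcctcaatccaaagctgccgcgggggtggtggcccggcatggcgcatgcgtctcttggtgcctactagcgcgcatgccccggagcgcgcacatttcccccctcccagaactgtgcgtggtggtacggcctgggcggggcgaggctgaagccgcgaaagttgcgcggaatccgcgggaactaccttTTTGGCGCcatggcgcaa
Dnmt1 (minus strand, chr9:20952574-20952873): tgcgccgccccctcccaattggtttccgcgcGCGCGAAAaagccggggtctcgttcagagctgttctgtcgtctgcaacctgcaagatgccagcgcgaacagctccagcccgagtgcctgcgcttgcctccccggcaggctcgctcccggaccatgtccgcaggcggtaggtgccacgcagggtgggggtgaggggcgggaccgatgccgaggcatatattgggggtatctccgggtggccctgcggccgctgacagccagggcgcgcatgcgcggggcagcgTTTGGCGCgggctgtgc
The Mcm3 window carries 2 octamers just after the start site, on opposite strands, and the Dnmt1 window carries 2 that lie far apart. Uhrf1 has 2 and Dnmt1 3 windows in the table, and the one shown is a window with an octamer.

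Values in every library are given, role by role, for the gene with the smallest adjusted p in the 48 h difference between the arms and for the gene with the highest mean CPM, 15 genes in all. They are given in CPM, from replicate 1 to replicate 5, and fold changes are log2 values of the edgeR fit, which adds TMM scaling between libraries. An siRNA effect is the log2 fold change of Kdm5c siRNA over scramble on 1 day, and a difference in fall is the 48 h log2 fold change with Kdm5c siRNA minus that with scramble. Origin recognition and loading was represented by 6 genes. All 6 fell over 48 h in both arms, by a median of 1.32 on the log2 scale with Kdm5c siRNA and 1.45 with scramble. ORC1 is the subunit whose level is known to cycle in mammalian cells. Orc1 had 24.4, 22.8, 24.04, 22.4 and 23.7 CPM in the Kdm5c siRNA libraries of day −2, against 24.6, 24.2, 24.1, 26.6 and 23.2 CPM in the scramble libraries. On day −1, Orc1 had 17.4, 16.6, 15.99, 17.4 and 17.1 CPM with Kdm5c siRNA, against 15.98, 16.8, 15.6, 19.2 and 17.3 CPM with scramble. By day 0, Orc1 had 12.9, 10.2, 10.4, 11.1 and 10.4 CPM with Kdm5c siRNA, against 10.8, 8.57, 9.34, 8.62 and 9.06 CPM with scramble. The groups overlapped on each day, and on day 0 the Kdm5c siRNA libraries were mostly above the scramble libraries. Orc1 (ENSMUSG00000028587; GRCm38 chromosome 4, 108579423 to 108614833, plus strand) fell over 48 h by 1.13 (SE 0.06) with Kdm5c siRNA and by 1.44 (SE 0.06) with scramble. The difference of the falls was 0.31 (SE 0.09, adjusted p = 0.0115), and on day 0 Kdm5c siRNA stood 0.25 (SE 0.07, adjusted p = 0.00371) above scramble. CDT1 brings the MCM ring to the origin and is blocked by geminin, the product of Gmnn. Cdt1 had 85.3, 85.6, 91.8, 92.7 and 92.6 CPM in the Kdm5c siRNA libraries of day −2, against 84.5, 85.1, 96.8, 105 and 93.3 CPM in the scramble libraries. On day −1, Cdt1 had 68.6, 70.5, 62.2, 66.3 and 68.2 CPM with Kdm5c siRNA, against 61.5, 64.01, 61.5, 68.8 and 67.4 CPM with scramble. By day 0, Cdt1 had 42.9, 40.8, 34.7, 37.02 and 32.6 CPM with Kdm5c siRNA, against 43.4, 31.6, 36.7, 35.99 and 31.9 CPM with scramble. Its groups overlapped on each day, with scramble day −2 spread widely around 92.9 CPM. Cdt1 fell by 1.29 with Kdm5c siRNA and by 1.41 with scramble, and the difference of 0.12 (SE 0.09, adjusted p = 0.45) was not called. Cdc6, which loads MCM rings with CDT1, fell further, by 1.72 with Kdm5c siRNA and by 1.89 with scramble. Orc2, a core subunit of the recognition complex, fell by 1.34 with Kdm5c siRNA and by 1.45 with scramble. Gmnn fell by 1.35 with Kdm5c siRNA and by 1.51 with scramble, and Orc6 fell by 1.12 with Kdm5c siRNA and by 1.21 with scramble. None of these 4 differences was called.

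**Figure D3:**
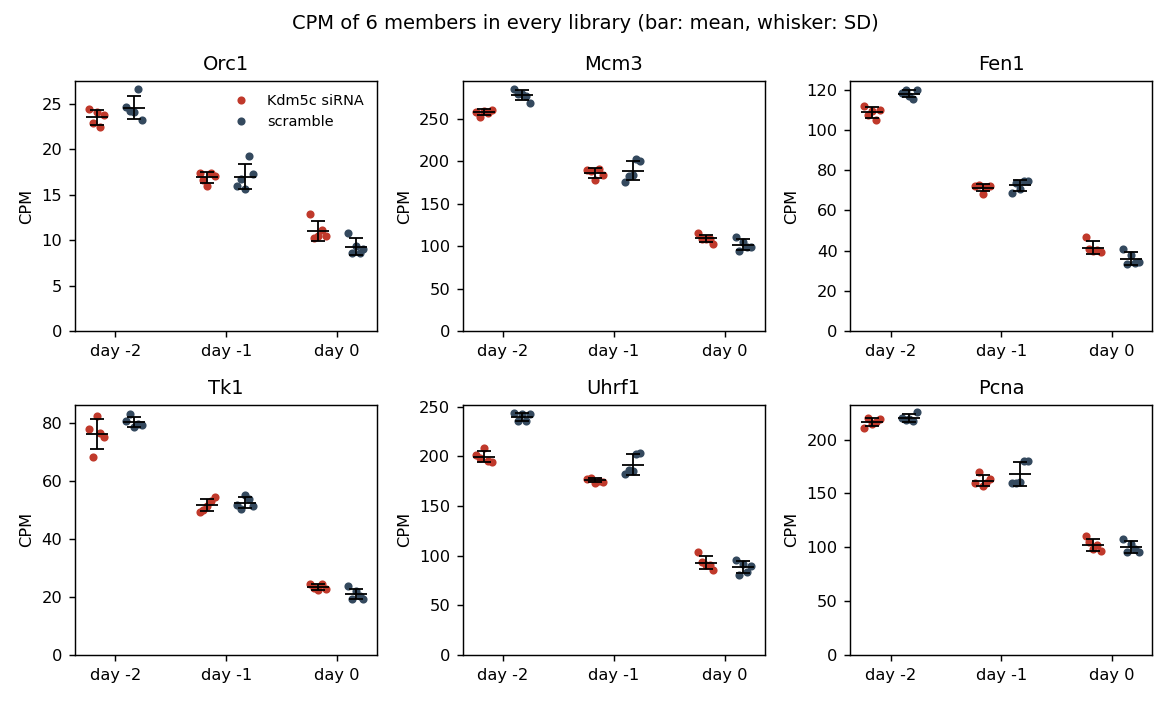
CPM of 6 of the genes in each library by day; points are libraries, bars the mean and whiskers the SD (n = 5). In each panel the days separate within both arms, while the siRNA groups of a day lie close, with Uhrf1 on day −2 the widest gap (means 199.8 and 239.9 CPM).

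The MCM helicase and its partner MCM10 gave 7 genes, which all fell in both arms, with log2 fold changes from −1.50 to −0.97 with Kdm5c siRNA and from −1.69 to −1.06 with scramble. Per kilobase of exon, Mcm4 was the highest of them in scramble cells on day −2, at 101.5 CPM per kb, and Mcm10 the lowest, at 7.67 CPM per kb. The length counts every annotated exon of a gene and can exceed that of the expressed transcript. Ranks per kilobase here and below therefore depend on the annotation. Mcm2 had the smallest fall of the 7. Mcm2 had 359, 361, 350.2, 351 and 349 CPM in the Kdm5c siRNA libraries of day −2, against 369, 368, 368, 363 and 363 CPM in the scramble libraries. On day −1, Mcm2 had 276, 284, 259, 273 and 278 CPM with Kdm5c siRNA, against 264, 265, 278, 293 and 284 CPM with scramble. By day 0, Mcm2 had 199, 187, 179, 184 and 179.6 CPM with Kdm5c siRNA, against 196, 174, 187, 173 and 172 CPM with scramble. On day −2 every Kdm5c siRNA library was below every scramble library, yet the difference had an siRNA effect of −0.04 (SE 0.03, adjusted p = 0.312) and was not called; on the other days the groups overlapped. Mcm2 fell by 0.97 with Kdm5c siRNA and by 1.06 with scramble. MCM3 is another of the 6 ring subunits. Mcm3 had 258, 251.6, 259, 257 and 261 CPM in the Kdm5c siRNA libraries of day −2, against 285, 279, 279, 276 and 268 CPM in the scramble libraries. On day −1, Mcm3 had 189.9, 189, 177, 191 and 184 CPM with Kdm5c siRNA, against 175, 183, 184, 203 and 199.6 CPM with scramble. By day 0, Mcm3 had 116, 109, 109, 109 and 103 CPM with Kdm5c siRNA, against 111, 94.5, 105, 98.8 and 99.02 CPM with scramble. All Kdm5c siRNA libraries lay below the scramble libraries on day −2, and on the later days the groups overlapped. The siRNA effect on Mcm3 had an siRNA effect of −0.10 (SE 0.03, adjusted p = 0.0218) on day −2 and 0.10 (SE 0.04, adjusted p = 0.0225) on day 0. Each of these calls was lost when 1 of some libraries was left out: scramble replicate 1 on day −2, and on day 0 Kdm5c siRNA replicate 1 or scramble replicate 2, 4 or 5. Mcm3 (chromosome 1, 20802968 to 20820312, minus strand) fell by 1.28 with Kdm5c siRNA and by 1.49 with scramble, a difference of 0.21 (SE 0.05, adjusted p = 0.00308). Mcm4, with a difference of 0.16 (SE 0.05, adjusted p = 0.0204), and Mcm10, with 0.21 (SE 0.07, adjusted p = 0.0316), were also called, while Mcm5, with 0.20 (SE 0.07, adjusted p = 0.053), Mcm6 and Mcm7 were not.

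CDC45 and the 4 GINS subunits complete the active helicase. These 5 genes fell in both arms, Gins1 the most, by 1.41 with Kdm5c siRNA and 1.52 with scramble, and Gins4 the least, by 0.60 with Kdm5c siRNA and 0.63 with scramble. Cdc45 had 49.4, 47.6, 46.6, 48.1 and 48.1 CPM in the Kdm5c siRNA libraries of day −2, against 49.4, 46.9, 49.1, 48.9 and 47.9 CPM in the scramble libraries. On day −1, Cdc45 had 42.4, 43.6, 39.8, 41.03 and 40.4 CPM with Kdm5c siRNA, against 37.9, 37.4, 40.4, 42.1 and 41.1 CPM with scramble. By day 0, Cdc45 had 24.9, 23.2, 20.6, 21.96 and 22.04 CPM with Kdm5c siRNA, against 22.1, 17.98, 21.4, 17.8 and 17.2 CPM with scramble. On day 0 the Kdm5c siRNA libraries were mostly the higher ones, with overlap, and on the earlier days the groups were mixed. Cdc45 (chromosome 16, 18780447 to 18811987, minus strand) was 0.23 (SE 0.05, adjusted p = 0.0011) higher with Kdm5c siRNA on day 0, and its fall of 1.13 with Kdm5c siRNA, against 1.36 with scramble, differed by 0.24 (SE 0.07, adjusted p = 0.0175). Gins3 fell by 0.77 with Kdm5c siRNA and by 0.98 with scramble; the difference of 0.21 (SE 0.07, adjusted p = 0.0455) was called, but not by DESeq2 or limma. Gins4 was 0.17 (SE 0.03, adjusted p = 0.000199) higher with Kdm5c siRNA on day −1. Gins1 and Gins2 were called on no day.

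The polymerases and primase held 9 genes, which fell by a median of 0.87 with Kdm5c siRNA and 0.97 with scramble. Pola1 and Pola2 encode subunits of polymerase alpha, which makes primers together with the primase subunits Prim1 and Prim2. Pola2 had 92.97, 92.9, 88.3, 92.5 and 91.97 CPM in the Kdm5c siRNA libraries of day −2, against 97.2, 97.7, 96.3, 99.7 and 97.4 CPM in the scramble libraries. On day −1, Pola2 had 82.4, 81.7, 77.9, 80.3 and 80.3 CPM with Kdm5c siRNA, against 81.03, 77.2, 77.4, 84.8 and 81.03 CPM with scramble. By day 0, Pola2 had 60.7, 57.5, 57.6, 60.5 and 56.9 CPM with Kdm5c siRNA, against 60.9, 51.99, 54.7, 53.5 and 54.7 CPM with scramble. The groups did not overlap on day −2, when Kdm5c siRNA was lower, and overlapped afterwards. The siRNA effect on Pola2 had an siRNA effect of −0.09 (SE 0.03, adjusted p = 0.025) on day −2 and 0.09 (SE 0.03, adjusted p = 0.0184) on day 0. The first call was lost without scramble replicate 4 or Kdm5c siRNA replicate 3 of that day, and the second without scramble replicate 2 or 4 or Kdm5c siRNA replicate 1 or 4. Pola2 fell by 0.69 with Kdm5c siRNA and by 0.86 with scramble over 48 h, a difference of 0.18 (SE 0.04, adjusted p = 0.0029). POLE is the catalytic subunit of polymerase epsilon, which copies the leading strand. Pole had 109, 112, 109, 107 and 109 CPM in the Kdm5c siRNA libraries of day −2, against 109.5, 112, 109, 114 and 110.1 CPM in the scramble libraries. On day −1, Pole had 97.03, 101, 98.02, 100.4 and 96.4 CPM with Kdm5c siRNA, against 95.97, 91.04, 93.97, 101 and 105 CPM with scramble. By day 0, Pole had 68.3, 61.1, 61.4, 58.6 and 60.1 CPM with Kdm5c siRNA, against 62.4, 53.9, 64.2, 54.9 and 55.8 CPM with scramble. Its groups overlapped on each day, and the difference in fall, 0.11 (SE 0.05, adjusted p = 0.181), was not called. Pold2, the second subunit of polymerase delta, was the only one of the 52 genes called lower with Kdm5c siRNA on all 3 days. Its siRNA effect had an siRNA effect of −0.13 (SE 0.03, adjusted p = 0.00508) on day −2, −0.24 (SE 0.04, adjusted p = 2.42e-06) on day −1 and −0.18 (SE 0.04, adjusted p = 0.000487) on day 0. Its fall was 1.02 with Kdm5c siRNA and 0.97 with scramble, a difference of −0.05 (SE 0.05, adjusted p = 0.602) that was not called. Prim2 was higher with Kdm5c siRNA on day −1, by 0.12 (SE 0.04, adjusted p = 0.00935), and on day 0, by 0.15 (SE 0.04, adjusted p = 0.0023). Pold3 fell little, by 0.52 with Kdm5c siRNA and 0.47 with scramble.

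The clamp, its loaders and the enzymes that join the lagging strand held 9 genes, and all 9 fell over 48 h in both arms. The clamp gene Pcna was among the highest per kilobase of annotated exon, at 91.8 CPM per kb in scramble cells on day −2. Pcna had 211, 219.7, 214, 216 and 219.6 CPM in the Kdm5c siRNA libraries of day −2, against 220.4, 219, 219, 217 and 226 CPM in the scramble libraries. On day −1, Pcna had 159.7, 169.8, 157, 159 and 163 CPM with Kdm5c siRNA, against 159.9, 159, 161, 179.9 and 180.1 CPM with scramble. By day 0, Pcna had 111, 104, 98.2, 102 and 96.1 CPM with Kdm5c siRNA, against 108, 95.2, 103, 98.8 and 95.99 CPM with scramble. The siRNA groups overlapped on each day, and on day −1 scramble replicates 4 and 5 stood above all others. Pcna fell by 1.12 with Kdm5c siRNA and by 1.17 with scramble, and the difference of 0.06 (SE 0.05, adjusted p = 0.508) was not called. GENCODE lists 2 pseudogenes named after Pcna, and how shared reads were assigned is not given in the sources used here. FEN1 trims the flap at the end of each lagging-strand fragment. Fen1 had 112, 108, 109, 105 and 109.8 CPM in the Kdm5c siRNA libraries of day −2, against 119, 119.9, 117, 116 and 119.6 CPM in the scramble libraries. On day −1, Fen1 had 72.1, 72.4, 68.3, 71.9 and 72.1 CPM with Kdm5c siRNA, against 68.6, 73.9, 70.6, 74.6 and 74.8 CPM with scramble. By day 0, Fen1 had 46.96, 40.97, 39.8, 40.2 and 39.2 CPM with Kdm5c siRNA, against 40.6, 33.4, 37.9, 33.8 and 34.4 CPM with scramble. Kdm5c siRNA libraries were all below scramble libraries on day −2, and on day 0 every one of them lay above 4 of the 5 scramble libraries. The siRNA effect on Fen1 (chromosome 19, 10199132 to 10204169, minus strand) had an siRNA effect of −0.12 (SE 0.04, adjusted p = 0.0181) on day −2, a call that needed Kdm5c siRNA replicate 4, and 0.20 (SE 0.04, adjusted p = 0.000315) on day 0. Its fall was 1.43 with Kdm5c siRNA and 1.75 with scramble, a difference of 0.32 (SE 0.06, adjusted p = 0.000124). The antisense gene Gm10143 covers 1909 of the 2422 exon bases of Fen1, and whether counting used the strand is not given, so reads from the antisense strand may be in these counts.

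Of the clamp loader genes, Rfc2 and Rfc4 were not called lower in the first 24 h in either arm. On the opposite strand, Lat2 shares 952 of the 6303 exon bases of Rfc2, and Eif4a2 shares 194 of the 1533 of Rfc4. Their counts therefore carry the same reservation as those of Fen1. Rfc2 had a log2 change of 0.05 (SE 0.03, adjusted p = 0.161) with Kdm5c siRNA from day −2 to day −1 and 0.06 (SE 0.03, adjusted p = 0.0958) with scramble, neither of them called. In the next 24 h it fell by 0.39 with Kdm5c siRNA and by 0.61 with scramble, a difference of 0.23 (SE 0.04, adjusted p = 0.00137). Rfc4 was higher on day −1 than on day −2 with Kdm5c siRNA, by 0.16 (SE 0.06, adjusted p = 0.0238), a call that failed when Kdm5c siRNA replicate 2 or 5 of day −2, or replicate 2 of day −1, was left out, and it had a log2 change of 0.03 (SE 0.06, adjusted p = 0.658) with scramble. Rfc1, the large subunit, was lower with Kdm5c siRNA on day −2, at −0.15 (SE 0.02, adjusted p = 1.99e-06), and on day −1, at −0.13 (SE 0.02, adjusted p = 8.33e-06). Lig1, for DNA ligase I, had an siRNA effect of −0.18 (SE 0.03, adjusted p = 0.000214) on day −2 and −0.13 (SE 0.03, adjusted p = 0.00296) on day −1, and stood at 0.02 (SE 0.04, adjusted p = 0.649) on day 0. Its fall of 0.78 with Kdm5c siRNA, against 0.98 with scramble, differed by 0.20 (SE 0.05, adjusted p = 0.00544).

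RPA, the complex that covers single-stranded DNA, has 3 subunits, and Rpa1 encodes the largest. Rpa1 had 184, 166, 175, 173 and 173 CPM in the Kdm5c siRNA libraries of day −2, against 200.02, 196, 193, 192 and 189 CPM in the scramble libraries. On day −1, Rpa1 had 145, 143, 142, 145 and 146 CPM with Kdm5c siRNA, against 148, 152, 153, 161 and 159.9 CPM with scramble. By day 0, Rpa1 had 102, 98.4, 92.9, 95.3 and 94.4 CPM with Kdm5c siRNA, against 104, 90.7, 101, 94.7 and 94.97 CPM with scramble. Kdm5c siRNA libraries were below all scramble libraries on days −2 and −1 and overlapped them on day 0. Rpa1 had an siRNA effect of −0.15 (SE 0.03, adjusted p = 0.000157) on day −2, −0.10 (SE 0.03, adjusted p = 0.00674) on day −1 and −0.00 (SE 0.03, adjusted p = 0.94) on day 0. Rpa2 had an siRNA effect of 0.20 (SE 0.06, adjusted p = 0.0154) on day 0, a call that did not hold when Kdm5c siRNA replicate 1 or scramble replicate 2 or 4 was left out. The 48 h difference in fall was called for Rpa1, at 0.15 (SE 0.04, adjusted p = 0.013), and for Rpa2, at 0.28 (SE 0.08, adjusted p = 0.0172), and not for Rpa3, at 0.08 (SE 0.05, adjusted p = 0.35). Rpa3 was called in neither arm from day −2 to day −1, at 0.04 (SE 0.04, adjusted p = 0.345) with Kdm5c siRNA and −0.01 (SE 0.04, adjusted p = 0.791) with scramble.

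Enzymes of deoxynucleotide supply had the largest median fall of the 9 roles in both arms. The median log2 fold change of the 5 genes was −1.50 with Kdm5c siRNA and −1.58 with scramble. Rrm2, the regulated subunit of ribonucleotide reductase, was the highest of the 52 genes per kilobase of annotated exon, at 119.7 CPM per kb in scramble cells on day −2. Rrm2 fell by 2.59 with Kdm5c siRNA and by 2.69 with scramble (SE 0.05 each). Tk1 salvages thymidine in S phase. Tk1 had 77.8, 68.3, 82.3, 76.5 and 75.1 CPM in the Kdm5c siRNA libraries of day −2, against 80.4, 83.00, 78.4, 79.6 and 79.4 CPM in the scramble libraries. On day −1, Tk1 had 49.4, 49.8, 51.1, 53.2 and 54.6 CPM with Kdm5c siRNA, against 51.5, 50.4, 55.2, 53.7 and 51.3 CPM with scramble. By day 0, Tk1 had 24.5, 23.2, 22.5, 24.5 and 22.7 CPM with Kdm5c siRNA, against 23.6, 19.4, 21.9, 20.4 and 19.4 CPM with scramble. Scramble libraries were mostly the higher on day −2 and Kdm5c siRNA libraries on day 0, with overlap each time. Tk1 was 0.17 (SE 0.05, adjusted p = 0.00985) higher with Kdm5c siRNA on day 0, and its fall of 1.73, against 1.97 with scramble, differed by 0.24 (SE 0.06, adjusted p = 0.00882). Rrm1 encodes the large subunit of ribonucleotide reductase. Rrm1 had 357, 349, 358, 356 and 359.9 CPM in the Kdm5c siRNA libraries of day −2, against 361, 363, 365, 346 and 355 CPM in the scramble libraries. On day −1, Rrm1 had 241, 246, 239, 243 and 255 CPM with Kdm5c siRNA, against 244, 251, 244, 259 and 258 CPM with scramble. By day 0, Rrm1 had 149.9, 142, 136, 138 and 139 CPM with Kdm5c siRNA, against 143, 136, 137, 133 and 134 CPM with scramble. The siRNA groups overlapped on each day, and the difference in fall was 0.05 (SE 0.03, adjusted p = 0.308), with a 95% interval from −0.01 to 0.12. Dut, which removes dUTP, was lower with Kdm5c siRNA on day −2, at −0.25 (SE 0.05, adjusted p = 0.000726), and on day 0, at −0.17 (SE 0.06, adjusted p = 0.0424). The day 0 call of Dut was lost without any of 6 libraries (Kdm5c siRNA day −2 replicate 5, Kdm5c siRNA day 0 replicates 2 to 5 and scramble day 0 replicate 1). Tyms, thymidylate synthase, had an siRNA effect of −0.10 (SE 0.03, adjusted p = 0.0114) on day −2, −0.15 (SE 0.03, adjusted p = 0.000158) on day −1 and −0.02 (SE 0.03, adjusted p = 0.661) on day 0.

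Factors that restore chromatin and DNA methylation behind the fork included the gene with the largest siRNA effect of the 52, Uhrf1 on day −2. UHRF1 reads hemimethylated DNA and recruits the maintenance methyltransferase DNMT1. Uhrf1 had 201, 199, 209, 196 and 195 CPM in the Kdm5c siRNA libraries of day −2, against 244, 235, 242, 236 and 242 CPM in the scramble libraries. On day −1, Uhrf1 had 178, 178, 174, 175 and 174 CPM with Kdm5c siRNA, against 182, 186, 185, 202 and 204 CPM with scramble. By day 0, Uhrf1 had 103, 94.02, 90.3, 90.6 and 85.7 CPM with Kdm5c siRNA, against 95.98, 80.7, 91.5, 83.8 and 89.9 CPM with scramble. On days −2 and −1 all Kdm5c siRNA libraries were below all scramble libraries, and on day 0 the groups overlapped. Uhrf1 (chromosome 17, 56303321 to 56323486, plus strand) had an siRNA effect of −0.26 (SE 0.04, adjusted p = 2.11e-06) on day −2, −0.12 (SE 0.04, adjusted p = 0.00897) on day −1 and 0.07 (SE 0.04, adjusted p = 0.151) on day 0. Its fall was 1.15 with Kdm5c siRNA and 1.48 with scramble, the largest difference among the 52 genes, 0.33 (SE 0.05, adjusted p = 4.68e-05). Dnmt1 had 325, 326, 329, 338 and 338 CPM in the Kdm5c siRNA libraries of day −2, against 339, 343, 343, 337 and 339.9 CPM in the scramble libraries. On day −1, Dnmt1 had 287, 290.2, 285, 299 and 294 CPM with Kdm5c siRNA, against 292, 283, 289.5, 312 and 308 CPM with scramble. By day 0, Dnmt1 had 209.6, 191, 189.8, 192 and 191 CPM with Kdm5c siRNA, against 188, 169, 184, 168 and 171 CPM with scramble. Here the groups overlapped on the first 2 days and parted on day 0, with every Kdm5c siRNA library above every scramble library. Dnmt1 had an siRNA effect of 0.15 (SE 0.03, adjusted p = 0.000144) on day 0, and its fall of 0.81 with Kdm5c siRNA, against 0.99 with scramble, differed by 0.18 (SE 0.04, adjusted p = 0.00179). Chaf1a and Chaf1b encode subunits of the histone chaperone CAF-1. Chaf1a had an siRNA effect of −0.12 (SE 0.04, adjusted p = 0.0149) on day −2 and 0.17 (SE 0.04, adjusted p = 0.00203) on day 0, while Chaf1b had an siRNA effect of −0.14 (SE 0.04, adjusted p = 0.00765) on day −2, −0.14 (SE 0.04, adjusted p = 0.00845) on day −1 and −0.07 (SE 0.04, adjusted p = 0.243) on day 0. Ubxn6 on the opposite strand shares 4648 of the 8854 exon bases of Chaf1a, so its counts carry the same reservation as those of Fen1.

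Fork protection and recombination held 4 genes, all of which fell. Brca1 had 56.8, 53.97, 55.5, 54.1 and 56.4 CPM in the Kdm5c siRNA libraries of day −2, against 59.2, 59.1, 57.01, 56.8 and 56.5 CPM in the scramble libraries. On day −1, Brca1 had 50.04, 49.5, 50.2, 46.8 and 49.2 CPM with Kdm5c siRNA, against 50.8, 46.3, 47.7, 52.9 and 49.4 CPM with scramble. By day 0, Brca1 had 28.97, 29.2, 24.5, 28.3 and 27.4 CPM with Kdm5c siRNA, against 27.7, 21.1, 27.02, 23.5 and 21.7 CPM with scramble. The groups overlapped on each day, and on day 0 most Kdm5c siRNA libraries were above most scramble libraries. Brca1, which protects stalled forks and directs recombination, had an siRNA effect of 0.19 (SE 0.05, adjusted p = 0.00487) on day 0, and its fall of 1.04 with Kdm5c siRNA, against 1.29 with scramble, differed by 0.25 (SE 0.07, adjusted p = 0.0131). Clspn, for the checkpoint adaptor claspin, fell by 1.68 with Kdm5c siRNA and by 1.87 with scramble, a difference of 0.19 (SE 0.06, adjusted p = 0.0359). Brca2, which fell by 0.78 with Kdm5c siRNA and 0.77 with scramble, and Tipin, which fell by 1.11 with Kdm5c siRNA and 1.15 with scramble, did not pass the test of the difference.

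The pace of the fall was the next comparison, made after the data were seen by setting the second 24 h against the first. With Kdm5c siRNA, 48 of 52 genes were lower and 1, Rfc4, higher on day −1 than on day −2, where 38.5% of all genes were lower, 38.2% higher and 76.8% either. Under library totals, and in limma with each of the 3 constants, those counts were 44 lower and 3 higher: Gins4, Pold3, Rfc1 and Lig1 lost their call, and Rfc2 and Rpa3 were called higher beside Rfc4. The Rfc4 call was lost with no filter on low counts and without Kdm5c siRNA replicate 2 or 5 of day −2 or replicate 2 of day −1, the Pold3 call also without Kdm5c siRNA replicate 4 of day −1, and the Lig1 call without replicate 3. From day −1 to day 0, 52 of 52 were lower with Kdm5c siRNA, where 38.1% of all genes were lower, 36.6% higher and 74.7% either. With scramble, 49 of 52 were lower in the first step, where 39.4% of all genes were lower, 39.5% higher and 78.9% either; under library totals and in limma, 46 were lower and 1 higher. In the second step 52 of 52 were lower with scramble, where 37.9% of all genes were lower, 36.8% higher and 74.7% either. Medians were −0.39 and then −0.69 with Kdm5c siRNA, and −0.44 and then −0.80 with scramble. On the log2 scale, the second step was larger than the first in 44 genes and smaller in 0 with Kdm5c siRNA, where 24.6% of all genes had a more negative second step, 21.3% a more positive one and 45.9% either. With scramble it was larger in 45 genes and smaller in 1, Orc2, where the shares of all genes were 26.2%, 23.7% and 49.8%. This need not hold for absolute levels. Rrm2 with Kdm5c siRNA went from 119.999 to 56.278 and then 20.485 CPM per kb, losing more in the first step. The median share of the 48 h log2 fall that came in the first 24 h was 36.25% with Kdm5c siRNA and 36.2% with scramble. Orc2 was the most front-loaded, with 53.9% of its fall in the first 24 h with Kdm5c siRNA and 57.2% with scramble, and Rfc2, Rfc4 and Rpa3 the least. The Orc2 call was lost under upper-quartile scaling, under library totals, in limma and without scramble replicate 1 or 2 of day −1 or replicate 1 of day 0. Nif3l1 on the opposite strand shares 1150 of the 3857 exon bases of Orc2, so its reads may be in the Orc2 counts.

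The siRNA effect on each day was small. On day −2, 0 of 52 genes were higher and 12 lower with Kdm5c siRNA, where 11.3% of all genes were higher, 11.9% lower and 23.2% either, and the median log2 fold change was −0.05, beside medians close to 0 over all genes on each day. The 12 were Mcm3, Pola2, Pold2, Rfc1, Fen1, Lig1, Rpa1, Tyms, Dut, Uhrf1, Chaf1a and Chaf1b. On day −1, 3 genes were higher (Orc6, Gins4 and Prim2) and 7 lower (Pold2, Rfc1, Lig1, Rpa1, Tyms, Uhrf1 and Chaf1b), where 18.8% and 16.8% of all genes were and 35.6% changed either way, and the median was −0.002; the Orc6 call was lost without scramble replicate 1. On day 0, 17 were higher and 2, Pold2 and Dut, lower, where 19.3% and 16.2% of all genes were and 35.5% changed either way, and the median was 0.08. The 17 were Orc1, Mcm3, Mcm4, Mcm10, Cdc45, Pola2, Prim2, Rfc2, Rfc3, Fen1, Rpa2, Rpa3, Tk1, Dnmt1, Chaf1a, Brca1 and Clspn. Without scramble replicate 1 of day 0, 28 were higher and 1 lower, and without replicate 1 of both day 0 groups, 20 and 1. Among the 17, the calls of Mcm4 and Rpa3 were also lost when some libraries were left out: Mcm4 without Kdm5c siRNA replicate 1 or scramble replicate 5, and Rpa3 without Kdm5c siRNA replicate 1, 2 or 4 or scramble replicate 4. Chaf1a, Fen1, Mcm3 and Pola2 were lower on day −2 and higher on day 0, and 25 of the 52 genes were called on no day. The matching shares of all genes were not computed, so whether these counts are unusual was not tested.

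**Figure D4:**
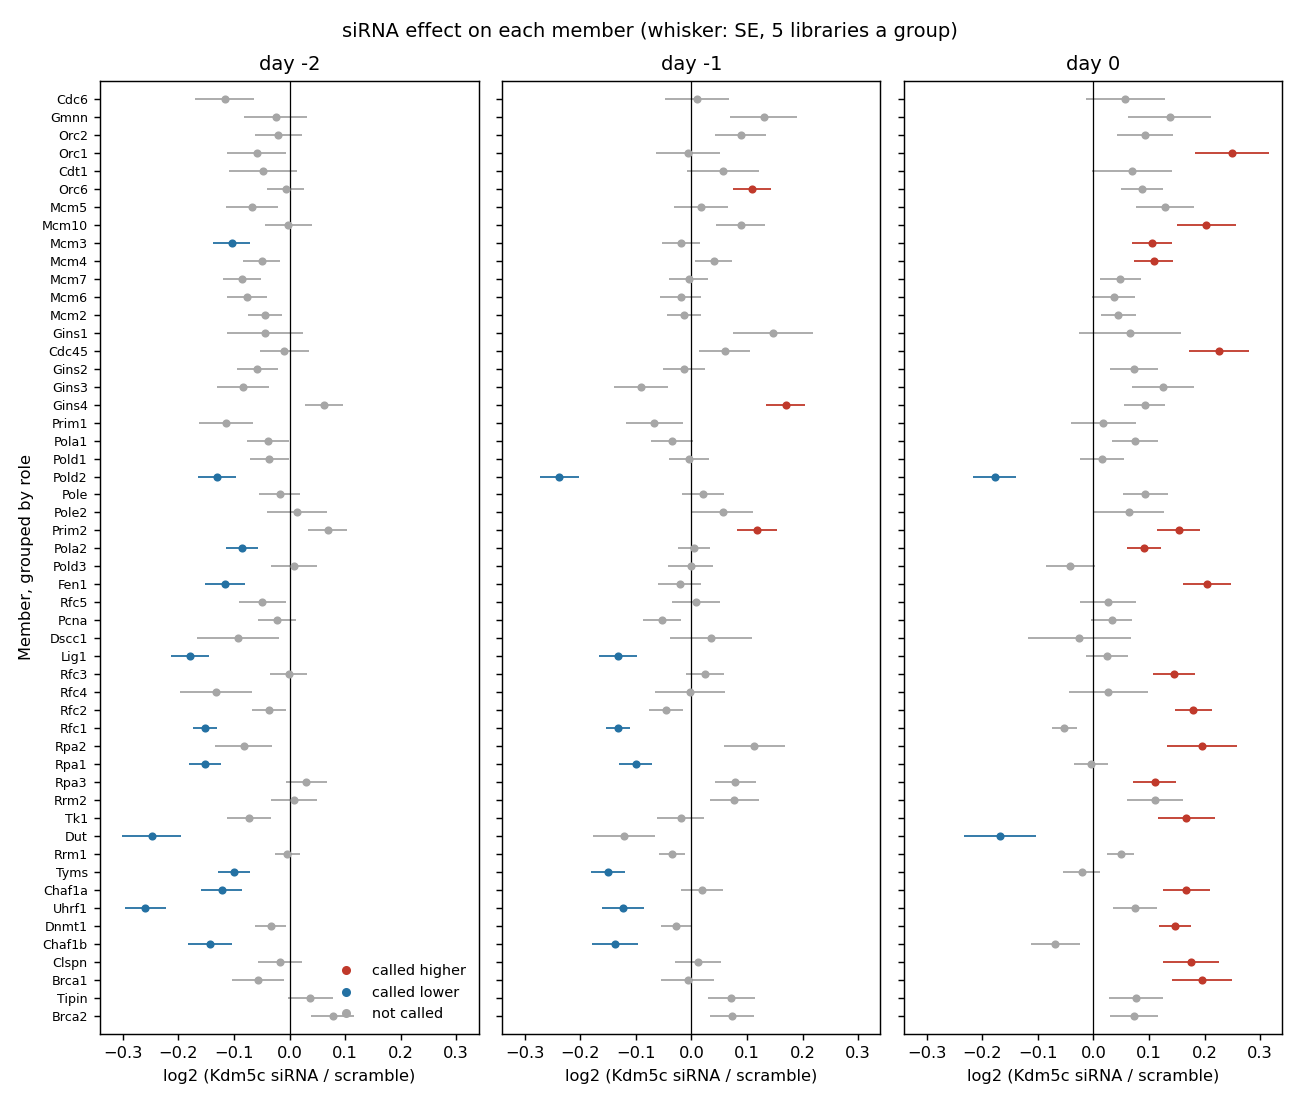
The log2 fold change of each of the 52 genes, Kdm5c siRNA over scramble, on day −2, day −1 and day 0; points are fitted values, whiskers the SE, and colour marks calls. Calls lie left of 0 on day −2 (12 lower) and mostly right of 0 on day 0 (17 higher, 2 lower).

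The change of that effect over time is the test of whether the fall differed between the arms. Over 48 h, 20 of 52 genes (38.5%) fell less with Kdm5c siRNA than with scramble and 0 fell more, where 9.95% of all genes had a positive difference, 6.18% a negative one and 16.1% either. The median difference was 0.12, beside 0.01 over all genes. In 49 of 52 genes the difference was above 0, and the share of all genes above 0 is not given here. The 52 genes were measured in the same libraries, so these signs are not independent of each other. All 52 genes fell, so shares of other falling genes are given beside those of all genes. Of the 5189 genes outside the list that were lower on day 0 than on day −2 in scramble, 14% fell less with Kdm5c siRNA, 2.02% fell more and the median difference was 0.04. Of the 2898 of those whose scramble fall was within the range of the 52 genes, 17.3% fell less, 1.31% fell more and the median was 0.06. That set shares the range of the falls, but was not matched on how falls are spread within it. Among the 52 genes, larger scramble falls went with larger differences (Spearman −0.458 for scramble log2 fold change and difference). The scramble fall also enters the difference itself, so 38.5% and 17.3% are not like for like. The size of the difference was modest: the 48 h log2 fall with Kdm5c siRNA was a median of 89.5% of that with scramble.

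**Figure D5:**
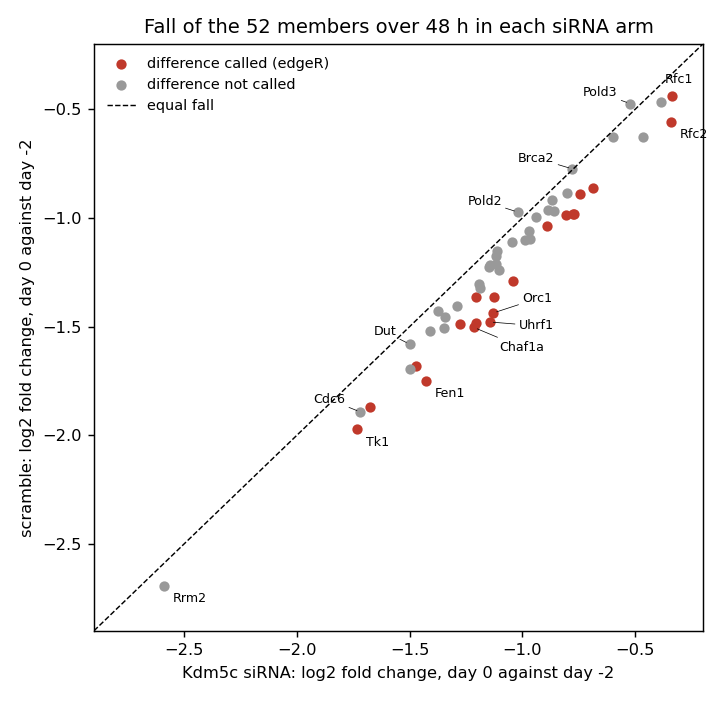
Log2 fold change of each of the 52 genes from day −2 to day 0 with Kdm5c siRNA (horizontal) and with scramble (vertical); red points are the 20 genes whose difference was called, and the dashed line marks equal falls. Most points lie below the line, on the side of the smaller fall with Kdm5c siRNA, and Pold2, Pold3 and Brca2 lie above it.

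The 20 genes were spread over all 9 roles, with Orc1, Mcm3, Mcm4, Mcm10, Cdc45, Gins3 and Pola2 upstream of primer extension, Rfc1, Rfc2, Rfc3, Fen1, Lig1, Rpa1 and Rpa2 at the fork, and Tk1, Uhrf1, Dnmt1, Chaf1a, Brca1 and Clspn beside it. Of the 9 clamp, loader, flap and ligase genes, 5 were called, and of the 4 chromatin and methylation genes, 3. DESeq2 and limma on log2 (CPM + 0.5) each called 19 with no gene in the other direction, and 14 of the 20 were called under every alternative: Orc1, Mcm3, Cdc45, Pola2, Rfc2, Fen1, Lig1, Rpa1, Rpa2, Tk1, Uhrf1, Dnmt1, Chaf1a and Brca1. The other 6 lost their call under at least 1 alternative: Rfc1 with no filter on low counts, Mcm4 without scramble replicate 5 or Kdm5c siRNA replicate 1 of day 0. Mcm10 and Clspn lost theirs without Kdm5c siRNA replicate 1 or scramble replicate 2, 4 or 5 of day 0, without scramble replicate 2 of day −2, and without 2 or 3 further libraries. Gins3 lost its call without any of 13 libraries of the 30 and Rfc3 without any of 14. Split by step, 0 genes differed from day −2 to day −1, where 2.14% of all genes had a positive difference, 1.42% a negative one and 3.56% either. At an unadjusted p under 0.05, 6 were positive and 1 negative in that step, and DESeq2 and limma called 0 as well, but with no filter on low counts 2 were called, Uhrf1 (0.132, SE 0.038, adjusted p = 0.0303) and Chaf1a (0.137, SE 0.042, adjusted p = 0.0468). From day −1 to day 0, 4 genes fell less with Kdm5c siRNA, where 4.06% of all genes had a positive difference, 1.81% a negative one and 5.87% either: Rfc2 by 0.23 (SE 0.04, adjusted p = 0.00137), Fen1 by 0.23 (SE 0.06, adjusted p = 0.0131), Uhrf1 by 0.20 (SE 0.05, adjusted p = 0.0234) and Dnmt1 by 0.17 (SE 0.04, adjusted p = 0.00633). That count was 15 without scramble replicate 1 of day 0, and 8 without replicate 1 of both day 0 groups. It was also 8 with no filter on low counts. The Uhrf1 call in this step was lost without scramble replicate 2 or 4 or Kdm5c siRNA replicate 1 of day 0. Both steps share the scramble group of day −1, in which replicates 4 and 5 lay apart. In the mean log2 level of the listed genes they were at 5.911 and 5.894, and replicates 1 to 3 at 5.793 to 5.817. The Kdm5c siRNA mean of day −1, 5.844, lay between these sets. No fit left out both replicates 4 and 5, so whether the split between the steps rests on them was not tested.

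Other genes of the same pathways, 65 measured of 66 listed, mostly fell too. Over 48 h, 60 fell and 4 rose in each arm, with a median of −0.94 with Kdm5c siRNA and −1.04 with scramble. Among all genes, 43.6% fell in each arm, while 43.8% rose with Kdm5c siRNA and 44.6% with scramble. Those with the smallest adjusted p in edgeR included genes of nucleotide metabolism. Dctpp1, a dCTP pyrophosphatase, was at −1.71 (SE 0.04, adjusted p = 5.89e-28) with Kdm5c siRNA and −1.91 (SE 0.04, adjusted p = 4.35e-29) with scramble. Ctps, a CTP synthase, was at −1.80 (SE 0.05, adjusted p = 1.04e-27) with Kdm5c siRNA and −1.85 (SE 0.05, adjusted p = 4.33e-28) with scramble. Umps and Cad, of pyrimidine synthesis, were at −1.59 and −1.34 with Kdm5c siRNA and at −1.72 and −1.52 with scramble. The genes that rose in both arms were Tk2, the mitochondrial thymidine kinase, Pold4, a small polymerase delta subunit, and the origin subunit Orc3. Rrm2b, the p53-regulated subunit of ribonucleotide reductase, rose by 0.30 with scramble and was at 0.01 with Kdm5c siRNA, a difference of −0.28 (SE 0.09, adjusted p = 0.0287). That call was lost without scramble replicate 3 or Kdm5c siRNA replicate 2 of day −2, or without scramble replicate 5 or Kdm5c siRNA replicate 3 of day 0. The telomere capping gene Ctc1 rose by 0.16 with Kdm5c siRNA and was at −0.00 with scramble. In the test of the difference, 16 of 65 fell less with Kdm5c siRNA or rose more, and 1, Rrm2b, went the other way, with a median of 0.11. The all-gene shares were 9.95% positive and 6.18% negative. On single days 3 were higher and 13 lower with Kdm5c siRNA on day −2, 14 and 3 on day −1, and 18 and 4 on day 0. Shares of all genes were 11.3% higher and 11.9% lower on day −2, 18.8% and 16.8% on day −1, and 19.3% and 16.2% on day 0. The second 24 h had the more negative change in 36 and the more positive one in 6 with Kdm5c siRNA, and in 30 and 14 with scramble. For all genes the shares were 24.6% and 21.3% with Kdm5c siRNA, and 26.2% and 23.7% with scramble. Whether these genes differ from the list of 52 was not tested. Chtf18, of an alternative clamp loader, differed by 0.35 (SE 0.08, adjusted p = 0.00328), Topbp1, an activator of origin firing, by 0.20 (SE 0.05, adjusted p = 0.00568) and Cad by 0.17 (SE 0.04, adjusted p = 0.00362).

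The mitosis genes, 32 of 32 measured, also fell in both arms, by a median of 1.32 with Kdm5c siRNA and 1.49 with scramble, with all 32 called lower. In each arm 43.6% of all genes were lower. With Kdm5c siRNA, 1 was higher and 2 lower on day −2, 8 and 3 on day −1, and 28 and 0 on day 0, with a median of 0.15 on day 0. Across all genes, 11.3% were higher and 11.9% lower on day −2, 18.8% and 16.8% on day −1, and 19.3% and 16.2% on day 0. Cdk1, the mitotic kinase, had an siRNA effect of 0.22 (SE 0.03, adjusted p = 2.71e-06) and Ccnb2, its cyclin partner, 0.21 (SE 0.03, adjusted p = 5.13e-06) on day 0. The difference in fall was called for 14 of 32, all positive, with a median of 0.15, led in adjusted p by Cenpa, the centromeric histone, at 0.22 (SE 0.04, adjusted p = 0.000778), and followed by Cdk1 at 0.20, Ccnb2 at 0.19, Birc5 at 0.17, Kif2c at 0.20 and Mki67 at 0.14. A positive difference was called in 9.95% of all genes and a negative one in 6.18%. Whether the list of 52 differs from the mitosis list was not tested. Of 32 measured regulators of E2F and G1, 33 listed, 7 were higher and 9 lower with Kdm5c siRNA on day −2, 11 and 6 on day −1, and 14 and 4 on day 0. Over 48 h, 7 rose and 23 fell with Kdm5c siRNA and 9 rose and 23 fell with scramble, and the difference was positive in 6 and negative in 1. The all-gene shares given for the mitosis genes apply here too. Of all genes, 43.8% rose over 48 h with Kdm5c siRNA and 44.6% with scramble. Ccnd1, for cyclin D1, was higher with Kdm5c siRNA by 0.36 (SE 0.04, adjusted p = 1.14e-09) on day −1 and by 0.41 (SE 0.04, adjusted p = 1.07e-10) on day 0. Ccnd2 was higher on all 3 days, by 0.22, 0.37 and 0.28, and Cdk4 was lower on all 3, at −0.09, −0.09 and −0.07. Tfdp1, the dimer partner of E2F, was lower on day −2, at −0.20 (SE 0.03, adjusted p = 2.39e-06), and Foxm1, a driver of mitotic genes, had an siRNA effect of 0.18 (SE 0.04, adjusted p = 0.00035) on day 0. The genes with the smallest adjusted p over 48 h in scramble included both directions. Foxm1, Ccne1 (cyclin E1), Ccnd1 and E2f7, an E2F repressor, had changes of −1.58, −1.39, −1.30 and −1.90 with Kdm5c siRNA and of −1.79, −1.69, −1.64 and −2.01 with scramble. The cell cycle inhibitor genes Cdkn2a and Cdkn1a rose, by 1.03 and 1.21 with Kdm5c siRNA and by 0.95 and 1.22 with scramble.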

How the data were processed

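RNA was made into strand-specific mRNA libraries with the NuGEN Universal plus kit, per the labels' protocols. Reads were aligned with STAR 2.7.2a to GRCm38 and handled in edgeR 3.26.8, per the submitters' processing notes. No source used here gives the read counter, its annotation or its use of strand. The deposited CPM table holds 55573 genes, and its nonzero values are whole reads divided by library totals (100.0% within 0.05 reads). The deposited count table, named as normalized by the authors, holds raw read counts of 12016 genes with at least 1 CPM in 20 libraries (100.0% equal to the reads recovered from the CPM) and 99.7% to 99.8% of each library's reads. Precision follows the library totals, 25217905 to 33725717 reads, and a floor of 3 reads covers counting error only.

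Counts were fitted with edgeR 4.0.16 in R 4.3.3 (quasi-likelihood test, TMM scaling on full library totals, 6 group means, 30 libraries, 24 residual degrees of freedom), with Benjamini-Hochberg adjustment over all 12016 genes and a threshold of 0.05. Each siRNA arm was compared between days, the arms on each day, and the declines between arms. The code was tested on simulated data. Alternatives were other scalings, DESeq2 1.42.0, limma 3.58.1 on log2 (CPM + 0.5, 0.1 or 2) from the deposited values, other filters, a replicate block, fits of fewer libraries and leaving out each library. The comparison of the second with the first 24 h, and the fit without replicate 1 of both day 0 groups, were added after seeing the data. By rule, values in every library were given per role for the gene with the smallest adjusted p in the 48 h difference in decline and for that with the highest mean CPM. The 5 largest and 5 smallest falls in scramble and members called against the direction of most were also named. In the other lists the rule allows up to 6 called genes with the smallest adjusted p in a comparison; only some of these are named, picked after their values were seen, and so were Tk2, Pold4, Orc3 and Rrm2b, which lie outside the rule. The members and lists were chosen with earlier results of these data known. Exon overlaps and pseudogenes came from GENCODE M21, and promoters from RefSeq. Of the 52 genes, 16 share exon bases with a gene on the opposite strand and 3 with one on the same strand, and such reads cannot be told apart here.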

Additional observations from a re-analysis of the deposited data

Results flagged for a closer look

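Single libraries lay apart from the other 4 of their group in 5 of 96 groups of values tested with Dixon's ratio, where chance flags about 1 in 20 groups. On day −2, Kdm5c siRNA replicate 3 was low for Pola2, at 88.3 CPM. On day −1, Kdm5c siRNA replicate 3 was low for Fen1, at 68.3 CPM, and for the mean log2 level of the 52 genes, at 5.8. On day 0, Kdm5c siRNA replicate 1 was high for Fen1, at 47.0 CPM, and for Dnmt1, at 209.6 CPM (210.0 to 3 digits). Without that library the 48 h difference in fall stayed called for both genes.

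The fall from day −2 to day 0 differed between the siRNA arms in 20 genes, by the test of the difference itself in edgeR, and was smaller with Kdm5c siRNA in each. The differences were, on the log2 scale, 0.31 for Orc1, 0.21 each for Mcm3, Mcm10 and Gins3, 0.16 for Mcm4, 0.24 each for Cdc45 and Tk1, and 0.18 each for Pola2 and Dnmt1. They were 0.10 for Rfc1, 0.22 for Rfc2, 0.15 each for Rfc3 and Rpa1, 0.32 for Fen1, 0.20 for Lig1 and 0.28 for Rpa2. They were 0.33 for Uhrf1, 0.29 for Chaf1a, 0.25 for Brca1 and 0.19 for Clspn. In the step from day −1 to day 0 the differences were 0.23 each for Rfc2 and Fen1, 0.20 for Uhrf1 and 0.17 for Dnmt1.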

How the results depend on the processing

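Among values for single genes, none reversed under the 12 alternatives or when 1 library was left out, 193 lost and 201 gained a call, 19169 stayed called and 11013 stayed uncalled. Without 1 library the count of genes called was 11 to 14 on day −2, 9 to 12 on day −1 and 14 to 29 on day 0 (29 without scramble replicate 1 of day 0, against 19), and 15 to 28 for the 48 h difference in fall. For the difference from day −1 to day 0 it was 3 to 15 (main value 4), and it was 8 with no filter on low counts and 8 without replicate 1 of both day 0 groups. From day −2 to day −1 the count of differences was 2 with no filter, against 0.

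The median fall in the first 24 h with Kdm5c siRNA (−0.39) was −0.33 under upper-quartile scaling, −0.31 under library totals, and −0.307, −0.31 and −0.295 in limma with 0.5, 0.1 and 2 added. With scramble (−0.44) it was −0.374, −0.363, −0.359, −0.362 and −0.341 in the same order. Over 48 h it was −1.055 with Kdm5c siRNA under upper-quartile scaling, −1.061 and −0.992 in limma with 0.5 and 2, and −1.167 with no filter. With scramble over 48 h it was −1.156, −1.164 and −1.12 under the first 3 of these, and −0.753 from day −1 to day 0 in limma with 2. The second minus the first 24 h (−0.31 in each arm) was −0.419 with Kdm5c siRNA under library totals and −0.415, −0.422 and −0.397 in limma. With scramble it was −0.369 under upper-quartile scaling, −0.412 under library totals and −0.408, −0.411 and −0.381 in limma. Library totals moved the median of all genes in that comparison by −0.1104 with Kdm5c siRNA and −0.1072 with scramble. The limma fits, like the fit under library totals, used no TMM scaling, so they are not a separate check of the scaling. The cause of these shifts was not tested.

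Deviations of same-numbered libraries of the arms correlated from −0.222 to 0.294, over 0.1 in 4 of 15 pairs, and 3 of 15 matched their own number best, among them replicate 1 on days −2 and 0. The numbers were therefore not used as pairs. With a replicate block, 12, 10 and 20 genes were called on days −2, −1 and 0, and 19 differed in fall over 48 h. Depth limits the lowest genes most: in their lowest group, counting error per library was 9.36% for Dscc1 (114.2 reads on average) and over the common biological variation of 3.67% in 21 of 52 genes.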
